A study of Mus musculus with 19 samples.

Results

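Keratins are the intermediate filament proteins of epithelia, and 9 keratin genes (Krt5, Krt7, Krt8, Krt14, Krt15, Krt18, Krt19, Krt20 and Krt23) were followed here in RNA sequencing of whole kidneys from mice of strain B6C3F1/J at postnatal day 21 (3 weeks of age). They were taken by gene symbol from 54146 Ensembl gene identifiers per library, of which 52480 were paired with a symbol and 54 are keratin genes. DNA is newly methylated by the products of Dnmt3a and Dnmt3b, and the study deleted both genes in developing tubules. The control group held 3 libraries of genotype Dnmt3ab f/f, in which both genes carry floxed alleles and no Cre is named. The KspCre DKO group held 2 libraries of genotype KspCre Dnmt3ab f/f, which has the same floxed alleles and KspCre, a Cre under control of the Ksp-cadherin (Cdh16) promoter. That promoter is active in tubule epithelium, and which cells of these kidneys lost or kept both genes was not measured here. The other 14 of 19 samples were bisulfite libraries and are not analysed here. Whether each library is a different mouse is not stated in the labels, and the p-values cover only the spread among these 5 libraries, which may be technical.

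A keratin filament is built from pairs of a type I and a type II protein. Krt8 (type II) with Krt18 (type I) is the pair of simple epithelia, and Krt7 (type II) and Krt19 (type I) are added to it in ducts such as the renal collecting duct. Krt20 (type I) marks superficial urothelial and intestinal cells. Krt5 (type II), Krt14 and Krt15 (both type I) are keratins of the basal layer of stratified epithelia, including the urothelium that lines the renal pelvis. Krt23 (type I) was placed in neither class. Type II genes lie in a cluster on chromosome 15, which also holds Krt18, and the other type I genes lie in a cluster on chromosome 11.

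The promoters of the keratins differ in how many CpG sites, the places where DNA methyltransferases act, they hold. The sequences below are RefSeq windows of 300 bases (build GRCm38.p6), from 250 bases before to 50 after the gene start, and capitals mark CpG sites. Krt7 and Krt18 are shown because they hold the most CpG sites of the members with a window. Krt8 is shown because it is the filament partner of Krt18 and its near neighbour, and Krt23 because it had the smallest p of the 9.
Krt7 (chr15:101412153-101412452, plus strand): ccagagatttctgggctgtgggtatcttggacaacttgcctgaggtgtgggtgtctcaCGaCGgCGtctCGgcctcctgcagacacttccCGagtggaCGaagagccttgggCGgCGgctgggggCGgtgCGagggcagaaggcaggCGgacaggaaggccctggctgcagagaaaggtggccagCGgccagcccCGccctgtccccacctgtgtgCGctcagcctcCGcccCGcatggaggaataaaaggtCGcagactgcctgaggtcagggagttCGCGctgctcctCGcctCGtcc
Krt18 (chr15:102027966-102028265, plus strand): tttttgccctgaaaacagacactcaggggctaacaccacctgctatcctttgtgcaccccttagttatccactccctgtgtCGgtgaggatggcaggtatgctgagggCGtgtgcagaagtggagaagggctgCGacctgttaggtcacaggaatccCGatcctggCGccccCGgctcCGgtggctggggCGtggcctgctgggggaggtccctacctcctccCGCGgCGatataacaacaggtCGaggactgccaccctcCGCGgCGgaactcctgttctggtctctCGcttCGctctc
Krt8 (chr15:102004293-102004592, minus strand): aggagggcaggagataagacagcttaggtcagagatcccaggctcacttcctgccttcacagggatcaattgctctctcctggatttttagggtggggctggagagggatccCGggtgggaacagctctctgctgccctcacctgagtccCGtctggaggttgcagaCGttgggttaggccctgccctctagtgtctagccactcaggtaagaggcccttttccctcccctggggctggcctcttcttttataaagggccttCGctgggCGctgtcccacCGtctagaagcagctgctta
Krt23 (chr11:99493071-99493370, minus strand): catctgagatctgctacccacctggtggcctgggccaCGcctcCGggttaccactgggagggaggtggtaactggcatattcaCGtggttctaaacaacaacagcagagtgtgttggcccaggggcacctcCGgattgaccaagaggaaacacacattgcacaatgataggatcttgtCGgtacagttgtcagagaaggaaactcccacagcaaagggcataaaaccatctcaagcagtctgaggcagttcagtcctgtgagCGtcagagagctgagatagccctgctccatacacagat
The Krt7 window holds 21 CpG sites and the Krt18 window 17, against a median of 7 and an upper quartile of 20 over all 32850 windows of the table. The Krt8, Krt23, Krt5 and Krt20 windows hold 6 each. A window was found for 7 of the 9 members, all but Krt15 and Krt19. That of Krt14 (5 CpG sites) lies at an internal start 1480 bases from the annotated gene start. G and C make up 66.3% of the Krt7 window and 61.3% of the Krt18 window, and 58.0% of that of Krt8 and 53.0% of that of Krt23. Searched on both strands, the TATA motif TATAAA was matched in the windows of Krt8 (as 2 overlapping matches, 1 on each strand) and Krt20 and in 13.6% of all windows. The Sp1-type motif GGGCGG was matched 4 times in the Krt7 window, in none of the other 6, and in 35.7% of all windows. The AP-1 motif TGAGTCA (on the other strand TGACTCA) was in none of the 7 windows, against 5.2% of all windows. These matches describe the letters only, and no methylation value was used.

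The values are TPM, transcript abundances per unit of transcript length scaled to 1 common total per library, so levels of different genes can be compared but sequencing depth is unknown. Genes above 0 TPM numbered 18488 to 20510 in 4 libraries and 14710 in KspCre DKO replicate 2, in which mitochondrially encoded genes held 31.0% of all TPM against 18.2% to 23.2% in the others. The part of this library's difference in the keratin values was not tested. Leaving out either KspCre DKO library leaves 1 in that group, so that the spread comes from the controls alone and the lone library is assumed to vary like them. Dnmt3a stood at 13.2, 18.97 and 15.5 TPM in control libraries, against 9.98 and 14.2 TPM in KspCre DKO libraries, and Dnmt3b at 1.82, 2.86 and 1.98 against 2.29 and 3.25 TPM. Both sets overlap and do not check the labels, so each direction below rests on the labels. Kidney markers were present in every library: Slc34a1 of the proximal tubule at 1104 to 3053 TPM, Umod of the thick ascending limb at 193 to 802 TPM and Aqp2 of the collecting duct at 240.1 to 1414 TPM.

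Summed type I keratin RNA stood higher in both KspCre DKO kidneys than in each control, while the type II sums overlapped. Krt18 was about 2.24 times and Krt23 4.79 times as high on the mean, Krt8 1.29 times and Krt7 0.83 times, and Krt14, the least abundant tested member, was 5.47 times lower. No keratin passed the adjusted test: of 13963 genes tested with limma on log2(TPM + 1), 0.165% were called at an adjusted p below 0.05 (0.1% higher and 0.0645% lower), and of the 8 members that reached a mean of 1 TPM 0 were called. At an unadjusted p below 0.05, which 10.3% of all tested genes met, there were 3 members: Krt18 and Krt23 on the higher side (4.16% of all tested genes) and Krt14 on the lower (6.15%). The groups did not overlap in 5 of the 8 tested members, against 26.1% of all tested genes. Of these Krt8, Krt18 and Krt23 were higher (10.5% of all tested genes) and Krt7 and Krt14 lower (15.6%). In bulk tissue, a difference in the number of cells of a type and a difference in RNA per cell cannot be told apart.

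**Figure D1:**
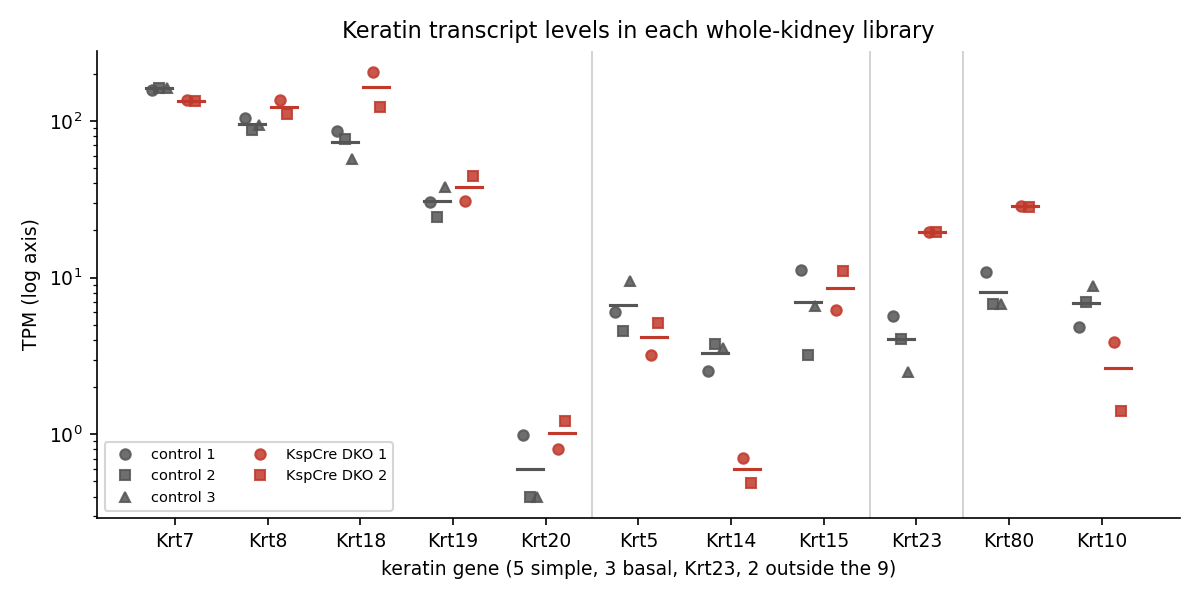
TPM on a log axis of the 9 keratins and the 2 other tested keratins in 3 control (grey) and 2 KspCre DKO (red) libraries, each point 1 library and each bar a group mean. The red points of Krt8, Krt18, Krt23 and Krt80 lie above all grey points, and those of Krt7, Krt14 and Krt10 lie below them.

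Krt7 was the most abundant keratin of the control kidneys. Krt7 (ENSMUSG00000023039.17, chromosome 15, 101412403 to 101427806), the ductal type II keratin, stood at 159, 163 and 162 TPM in control libraries, against 135 and 133 TPM in KspCre DKO libraries. The libraries of a group lie close together, within 2.37 TPM (SD, n = 3) and 1.44 TPM (SD, n = 2), and the groups do not overlap. The log2 fold change was −0.26 ± 0.23 (SE; limma adjusted p = 0.724), against a median of −0.14 for all tested genes. The SE comes from a spread moderated over all genes and is wider than these libraries alone would give. Quantile normalization, which moves the median of all genes to −0.02, gave Krt7 −0.06. The log2 fold change of Krt7 was −0.25 without KspCre DKO replicate 2.

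Krt8 and Krt18, the filament partners of simple epithelia, are neighbours on chromosome 15 with 23.9 kb between them. Krt8 (ENSMUSG00000049382.10, 101996711 to 102004342) stood at 104, 88.2 and 94.8 TPM in control libraries, against 136 and 111 TPM in KspCre DKO libraries. Both KspCre DKO values lie above the highest control, by a small margin for replicate 2. The log2 fold change of Krt8 was 0.36 ± 0.25 (SE; limma adjusted p = 0.658), with 0.22 without KspCre DKO replicate 1 and 0.50 without replicate 2. Krt18 (ENSMUSG00000023043.7, 102028216 to 102032026) stood at 86.3, 76.6 and 57.5 TPM in control libraries, against 206 and 123 TPM in KspCre DKO libraries. KspCre DKO replicate 1 is the high one, and replicate 2 is also above each control. The log2 fold change of Krt18 was 1.12 ± 0.32 (SE; limma unadjusted p = 0.00707, adjusted p = 0.269), and 0.76 without KspCre DKO replicate 1 or 1.49 without replicate 2. The pseudogene Krt8-ps stood at 0.07 to 0.54 TPM.

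The partners were not in the same proportion in the groups. The ratio of Krt18 to Krt8 TPM was 0.83, 0.87 and 0.61 in the controls and 1.52 and 1.11 in the KspCre DKO libraries. Krt8 exceeded Krt18 in each control and Krt18 exceeded Krt8 in both KspCre DKO libraries. This ratio is taken within a library, so scaling between libraries does not enter it, and it is given without a test because the members were chosen with results known.

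Krt19 and Krt20 showed no separation of the groups. Krt19 (ENSMUSG00000020911.14, chromosome 11, 100140810 to 100145926), the small type I keratin of ducts, stood at 30.6, 24.5 and 38.1 TPM in control libraries, against 30.8 and 44.6 TPM in KspCre DKO libraries. One value of the KspCre DKO group lies among the controls, and the log2 fold change was 0.27 ± 0.31 (SE; limma adjusted p = 0.796). For Krt19 it was 0.012 without KspCre DKO replicate 2, the library with fewer genes above 0, and 0.53 without replicate 1, so replicate 2 carries the value. Krt20 (ENSMUSG00000035775.2, chromosome 11, 99428385 to 99438153) was measured at 0.99, 0.40 and 0.40 TPM against 0.81 and 1.22 TPM. Its mean of 0.76 TPM over the 5 libraries is below the minimum of 1 TPM, so it was not tested.

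The sum of the 5 simple keratins was 381, 353 and 353 TPM in control libraries, against 508 and 414 TPM in KspCre DKO libraries. The groups of sums do not overlap, and the ratio of the means was 1.27. On the log2 scale this ratio is 0.35, and it ranged from 0.19 without KspCre DKO replicate 1 to 0.49 without replicate 2. Within the sum, the share of Krt7 was 41.6%, 46.2% and 46.0% in the controls and 26.6% and 32.2% in the KspCre DKO libraries. The share of Krt18 was 22.7%, 21.7% and 16.3% against 40.4% and 29.8%, and that of Krt8 lay between 25.01% and 27.4% in all 5 libraries.

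**Figure D2:**
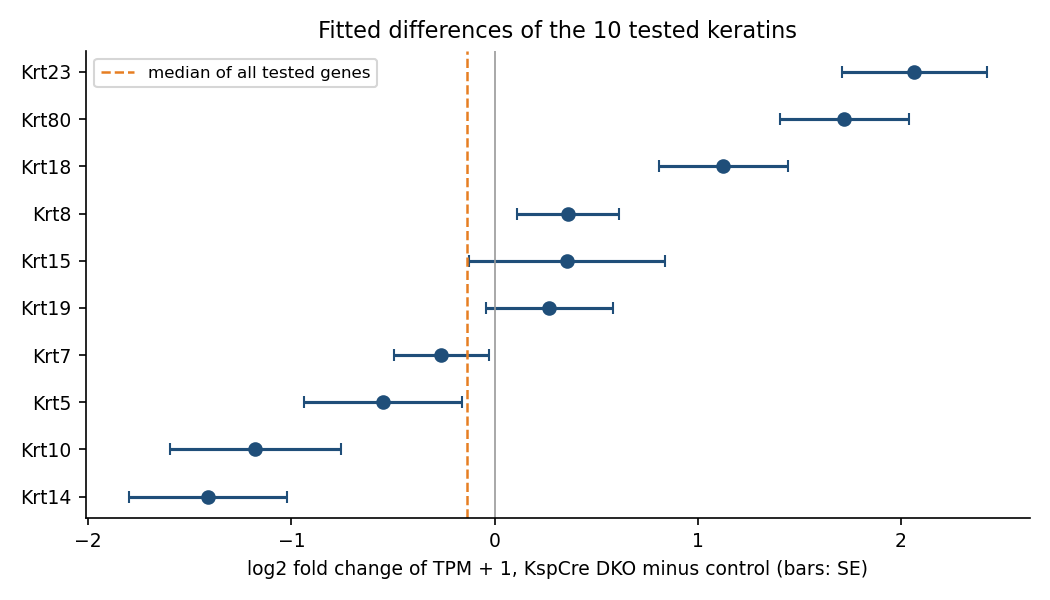
Log2 fold change of TPM + 1 with its SE for the 10 tested keratins, KspCre DKO minus control, with the median of all tested genes as a dashed line. Krt23, Krt80 and Krt18 lie on the higher side and Krt14 and Krt10 on the lower, and 0 of the 10 passed at an adjusted p below 0.05.

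The basal keratins were low in all libraries and did not go one way. Krt14 (ENSMUSG00000045545.8, chromosome 11, 100203162 to 100207510), the basal type I keratin, stood at 2.52, 3.79 and 3.53 TPM in control libraries, against 0.71 and 0.49 TPM in KspCre DKO libraries. The groups do not overlap, and the log2 fold change of Krt14 was −1.41 ± 0.39 (SE; limma unadjusted p = 0.00629, adjusted p = 0.26). On the scale of log2(TPM + 1) the difference of so low a gene is understated, and with a pseudocount of 0.1 it was −2.27. Krt14 shares long stretches with Krt16 and Krt17, so its reads may be divided among them. Krt16 and Krt17 were listed at or below 0.20 and 0.21 TPM in every library, and the part of such division in the Krt14 values was not tested. The log2 fold change of Krt14 was −1.51 without KspCre DKO replicate 1 and −1.31 without replicate 2. Its partner Krt5 (ENSMUSG00000061527.7, chromosome 15, 101707069 to 101712905) was measured at 6.03, 4.58 and 9.49 TPM against 3.19 and 5.17 TPM. These ranges overlap, and the log2 fold change of Krt5 was −0.55 ± 0.39 (SE; limma adjusted p = 0.663). Krt5 gave −0.27 without KspCre DKO replicate 1, −0.83 without replicate 2 and −0.30 without control replicate 3.

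Krt15 (ENSMUSG00000054146.8, chromosome 11, 100131759 to 100135949), a basal and progenitor keratin that lies 4.86 kb from Krt19, stood at 11.1, 3.19 and 6.59 TPM in control libraries, against 6.17 and 11.1 TPM in KspCre DKO libraries. The KspCre DKO values lie within the control range. The fitted log2 difference, 0.36 ± 0.48 (SE; limma adjusted p = 0.833), turned to −0.04 without control replicate 2 and −0.02 without KspCre DKO replicate 2. Krt14 made up 12.8%, 32.8% and 18.001% of the summed basal keratins in the controls and 7.05% and 2.92% in the KspCre DKO libraries. Trp63, the transcription factor that defines basal cells, stood at 0.10 to 1.49 TPM over the 5 libraries. Of the epidermis markers, Krt1 and Lor were at or below 0.21 and 1.43 TPM. Others of that list were higher, with Ivl at 0.35 to 2.96, Sbsn at 3.28 to 7.86 and Krt10 at 1.41 to 8.88 TPM.

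The basal sum and the ratio of simple to basal keratins overlapped between the groups. The basal sum was 19.7, 11.6 and 19.6 TPM in control libraries, against 10.1 and 16.8 TPM in KspCre DKO libraries. The ratio of the simple to the basal sum was 19.4, 30.5 and 18.005 in the controls and 50.5 and 24.7 in the KspCre DKO libraries. The high ratio of KspCre DKO replicate 1 carries the difference: the log2 ratio of the group means was 0.73 with both libraries and 0.13 without replicate 1. Simple keratins made up 91.9% to 95.8% of the summed TPM of the 9 genes in each library.

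Grouped by filament type, the type I sum of the 9 members separated the groups and the type II sum did not. These sums omit Krt80 (type II), which was higher in KspCre DKO libraries (28.5 against 8.14 TPM on the mean). They also omit Krt10 (type I), which was lower (2.635 against 6.92 TPM). Type II keratins (Krt5, Krt7 and Krt8) summed to 269, 256 and 267 TPM in the controls and to 274 and 249.8 TPM in the KspCre DKO libraries, with means of 264 ± 7.0 (SD, n = 3) and 262 ± 17.2 (SD, n = 2). Type I keratins (Krt14, Krt15, Krt18, Krt19, Krt20 and Krt23) summed to 137, 112.5 and 109 TPM in the controls and to 264 and 200.05 TPM in the KspCre DKO libraries. The ratio of type I to type II was 0.51, 0.44 and 0.41 in the controls and 0.96 and 0.80 in the KspCre DKO libraries. The log2 ratio of the group means was 0.96, and it lay between 0.82 and 1.09 when each library was left out in turn. Most of the added type I RNA was Krt18, with the rest mainly from Krt23.

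**Figure D3:**
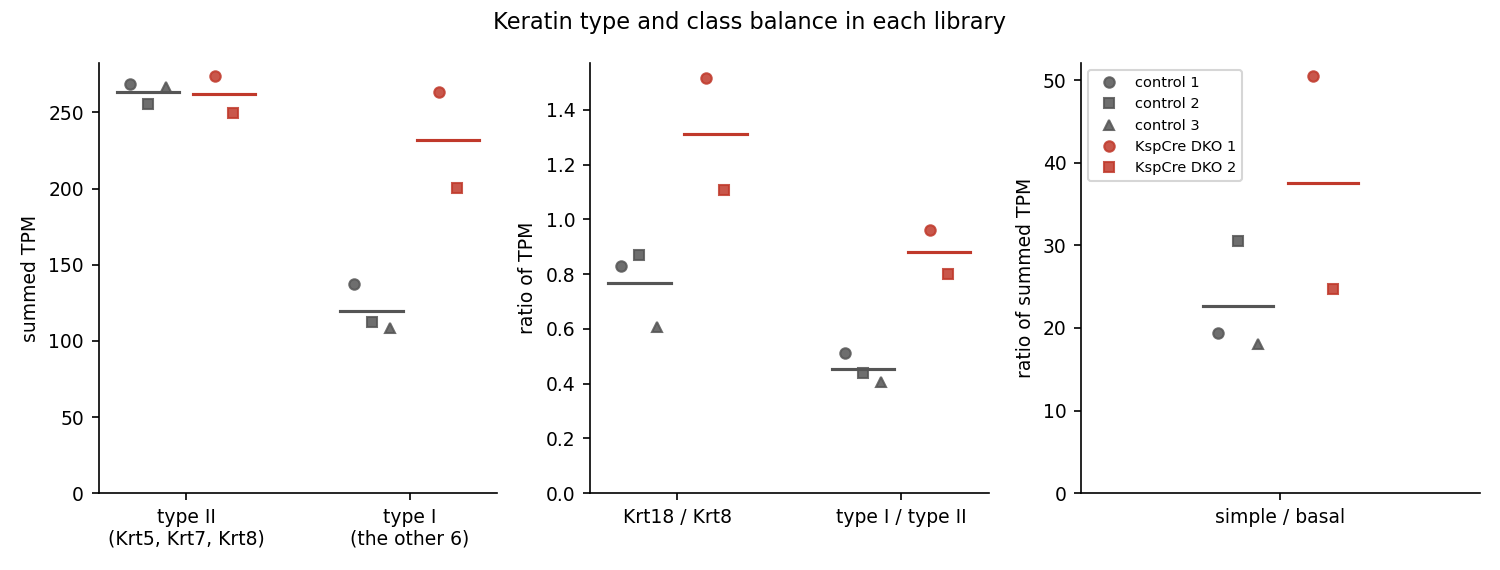
Left, summed TPM of the type II and type I keratins among the 9 members. Middle, ratios of Krt18 to Krt8 and of type I to type II. Right, ratio of simple to basal keratins. Each point is 1 library and each bar a group mean. Type II sums lie at 249.8 to 274 TPM in all 5 libraries, whereas the type I to type II ratio is 0.41 to 0.51 in the controls and 0.80 to 0.96 in the KspCre DKO libraries.

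Krt23 had the smallest p of the members. Krt23 (ENSMUSG00000006777.7, chromosome 11, 99477973 to 99493120), a type I keratin, stood at 5.67, 4.07 and 2.50 TPM in control libraries, against 19.6 and 19.5 TPM in KspCre DKO libraries. Both KspCre DKO values are more than 3 times the highest control. The log2 fold change was 2.07 ± 0.36 (SE; limma unadjusted p = 0.000345, adjusted p = 0.0831). It was 2.06 without KspCre DKO replicate 1 and 2.07 without replicate 2. Over 16 other settings the log2 fold change ran from 1.45 to 2.31 and the adjusted p from 0.0557 to 0.439, and it was called in none of them. The lowest adjusted p is the one without KspCre DKO replicate 1, in which the controls alone give the spread. Krt20, its neighbour 39.8 kb away, was near 0 in both groups.

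The levels order the members differently in the groups. In the controls the order was Krt7, Krt8, Krt18, Krt19, Krt15, Krt5, Krt23, Krt14 and Krt20. Neighbours in that order do not overlap from Krt7 down to Krt15, nor do Krt14 and Krt20. Krt15 and Krt5, Krt5 and Krt23, and Krt23 and Krt14 overlap and are not ordered beyond their spread. In the KspCre DKO libraries the order was Krt18, Krt7, Krt8, Krt19, Krt23, Krt15, Krt5, Krt20 and Krt14. There Krt18 and Krt7, and Krt7 and Krt8, overlap, and the later neighbours do not. Krt23 stood above Krt15, Krt5 and Krt14 in both libraries.

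Of the 45 other keratin genes, 31 were listed at 0 in all 5 libraries and 2 reached a mean of 1 TPM. Krt80 (ENSMUSG00000037185.9, chromosome 15, 101348315 to 101370162), a type II keratin found near desmosomes, stood at 10.9, 6.76 and 6.75 TPM in control libraries, against 28.65 and 28.4 TPM in KspCre DKO libraries. The groups are well apart, and the fitted log2 difference was 1.72 ± 0.32 (SE; limma adjusted p = 0.107), and 1.73 without KspCre DKO replicate 2. Krt10 (chromosome 11, 99385254 to 99397449), the type I keratin of differentiating epidermis, was measured at 4.84, 7.04 and 8.88 TPM against 3.86 and 1.41 TPM. Its groups do not overlap, and the log2 fold change was −1.18 ± 0.42 (SE; limma adjusted p = 0.386). Krt10 gave −0.67 without KspCre DKO replicate 2 and −1.68 without replicate 1. The remaining 12 reached at most 0.90 TPM in any library, Krt4 and Krt17 among them.

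Neighbouring keratins differed in whether they shared a direction: Krt8 and Krt18 both stood higher, and Krt80 and Krt7 did not share one. Krt80 and Krt7 lie 42.2 kb apart on chromosome 15 and had log2 fold changes of 1.72 and −0.26. Gm671, a long noncoding RNA whose annotated interval (101382578 to 101412192) ends just before Krt7 begins, stood at 6.02, 6.92 and 7.35 TPM in control libraries, against 5.30 and 0 TPM in KspCre DKO libraries. Gm35853, which overlaps Krt80, was at 0.06 to 0.96 TPM against 3.31 and 1.46 TPM; the strand setting is not given in the sources used here, so reads of these overlapping genes cannot be told apart. From 200 kb before Krt80 to 200 kb after Krt18, 17 genes were tested, with a median log2 fold change of −0.08. Of these 4 were higher and 4 lower without overlap of the groups, against 10.5% and 15.6% of all tested genes. The higher ones are Krt80, Krt8, Krt18 and Gm35853, and the lower ones are Krt7, Gm671, Atg101 and Csad. Apart from Atg101 (33.1 against 22.6 TPM on the mean) and Csad (108.9 against 90.8 TPM), the counts repeat the genes described above. In the chromosome 11 window around Krt20 to Krt14, 9 genes were tested, with 2 higher and 4 lower without overlap (10.5% and 15.6% of all tested genes). These counts include Krt23 on the higher and Krt14 and Krt10 on the lower side. The median log2 fold change was 0.27, the value of Krt19.

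**Figure D4:**
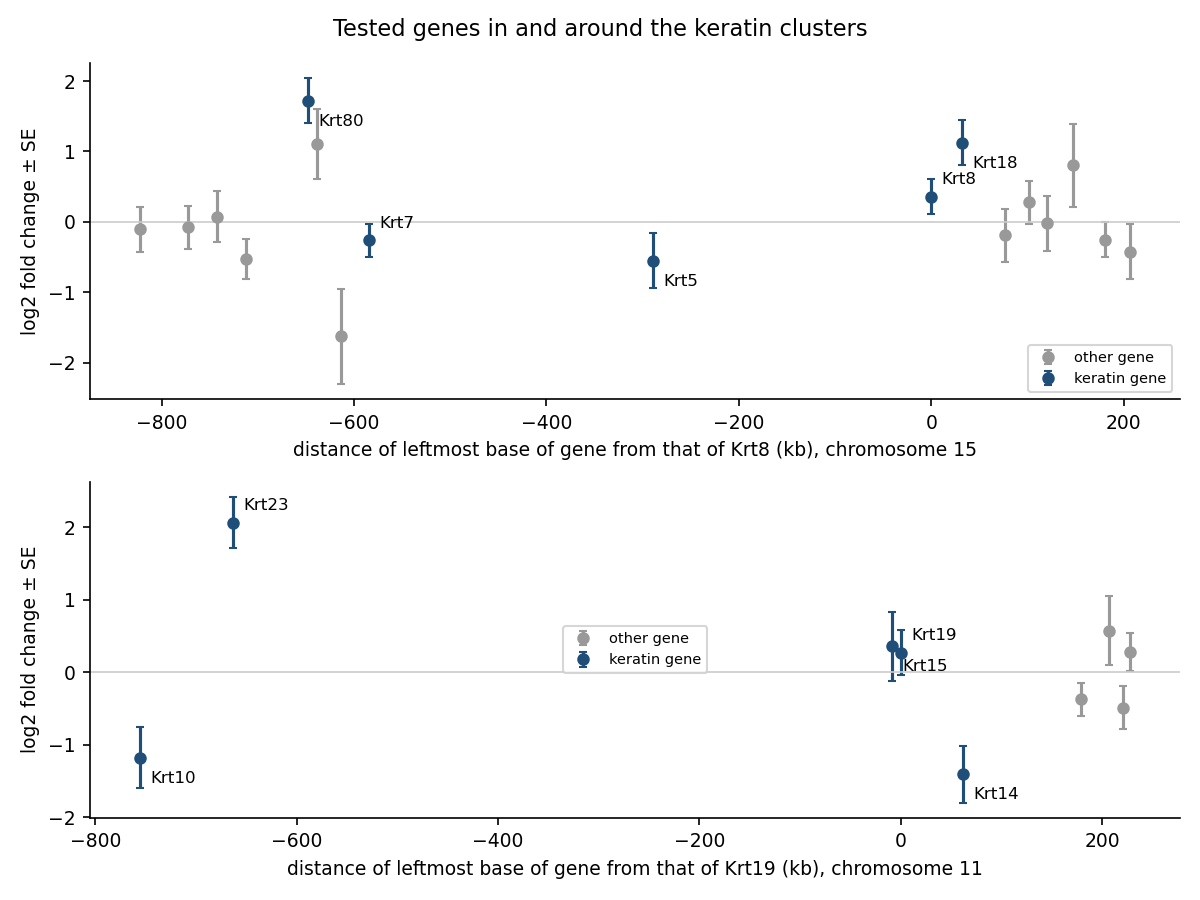
Log2 fold change with SE of each tested gene against the distance in kb of its leftmost base from that of Krt8 (top, chromosome 15) or Krt19 (bottom, chromosome 11), keratins in blue. Krt80 at 1.72 and Krt7 at −0.26 are adjacent tested keratins in the top panel, with Gm35853 and Gm671 between them. Krt23 at 2.07 and Krt10 at −1.18 are adjacent tested keratins in the bottom panel.

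Among 24 tested genes of filament partners and cell attachment, 0 were called by limma, and at an unadjusted p below 0.05 there were 3 higher and 1 lower. Of all tested genes 0.165% were called, 4.16% were higher and 6.15% lower at that unadjusted p. Their median log2 fold change was 0.05, against −0.14 for all tested genes. The 3 of smallest p were Lamb3, a chain of a basement membrane laminin, with a log2 fold change of 2.31, and Ppl (periplakin) and Dsp (desmoplakin), which tie keratin filaments to desmosomes. Dsp stood at 10.1, 7.0 and 6.14 TPM in control libraries, against 29.65 and 19.1 TPM in KspCre DKO libraries (log2 fold change 1.53 ± 0.34 SE, limma adjusted p = 0.17). Ppl stood at 9.51, 5.83 and 4.62 TPM against 33.6 and 15.4 TPM (log2 fold change 1.69 ± 0.42 SE, limma adjusted p = 0.21). The 1 on the lower side was Itga6, the integrin subunit of hemidesmosomes, at 45.1, 39.5 and 44.6 against 25.6 and 8.26 TPM. Plec (plectin), a linker of keratins to other filaments, and Jup (plakoglobin) differed by log2 fold changes of 0.17 and 0.28. The mesenchymal filament gene Vim stood at 150.5, 73.0 and 165 against 100 and 105 TPM, within the control range. The desmosomal genes Dsg1a, Dsc1 and Dsc3 of stratified epithelia were listed at 0 in each library.

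Of 19 tested transcription factors of epithelia, 0 were called by limma, and at an unadjusted p below 0.05 there were 7 higher and 0 lower (4.16% and 6.15% of all tested genes). The median of the list was 0.55 on the log2 scale, where that of the whole table is −0.14. The 3 of smallest p were Elf5, Tbx3 and Ehf. Elf5, an ETS factor of the collecting duct, stood at 17.2, 8.29 and 6.85 TPM in control libraries, against 70.8 and 53.6 TPM in KspCre DKO libraries (limma adjusted p = 0.0705). Tbx3, a T-box repressor, stood at 6.02, 3.27 and 7.15 against 26.3 and 30.6 TPM (limma adjusted p = 0.0705). Ehf, an ETS factor related to Elf5, stood at 30.1, 22.8 and 34.0 against 90.1 and 74.8 TPM (limma adjusted p = 0.129). In each of the 3 the groups do not overlap, which follows in part from their choice by smallest p. Of the 19 factors 8 were higher and 1 lower without overlap, against 10.5% and 15.6% of all tested genes.

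Markers of cell types that can carry these keratins also stood apart. The 11 matched collecting duct principal cell markers summed to 1144 to 1225 TPM in the controls and 2589 to 2619 TPM in the KspCre DKO libraries, with 5 higher and 1 lower at an unadjusted p below 0.05 and 0 called by limma. The shares of all tested genes, for this and the next lists, are 4.16% higher and 6.15% lower. Aqp2, the largest of them, stood at 346.5, 240.1 and 426 TPM against 1414 and 1218 TPM (limma adjusted p = 0.0512). Elf5 and Gata3 are among the 5 higher markers and also among the higher transcription factors counted above, so these counts are not separate. Of the 11 markers 7 were higher, 6 of them without overlap, and 4 were lower, 3 of them without overlap. Of all tested genes 10.5% were higher and 15.6% lower without overlap. The 3 lower markers were the potassium channel gene Kcnj1 (log2 fold change −1.05) and the sodium channel genes Scnn1b (−0.24) and Scnn1g (−0.25). Krt7, a keratin of the same duct, had −0.26. The 7 urothelium markers other than Krt5 and Krt20 summed to 71.5 to 141.5 TPM in the controls and 264 to 404 TPM in the KspCre DKO libraries, 0 called and 3 higher at an unadjusted p below 0.05. Psca, the largest part of that sum in each library, stood at 71.0, 28.6 and 36.0 against 316 and 179 TPM. The uroplakin genes, which define the superficial urothelium, differed among themselves. Upk3b stood at 6.56, 2.42 and 2.06 against 18.7 and 12.9 TPM (limma adjusted p = 0.18) and Upk3a at 22.4, 16.1 and 19.5 against 33.4 and 30.1 TPM (limma adjusted p = 0.444), both without overlap. Upk1a and Upk2 overlapped between groups, at 4.88 to 14.1 against 7.42 to 9.03 TPM and at 7.08 to 14.4 against 12.2 to 24.4 TPM, and so did Upk1b. Thick ascending limb markers were lower, with a sum of 2570 to 2842 against 864 to 1347 TPM and 7 of 10 lower at an unadjusted p below 0.05. The part of these cell types in the keratin values was not tested.

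Markers of tubule injury, with which Krt8, Krt18, Krt19, Krt20 and Krt7 are often listed, gave these values. Havcr1 (KIM-1), the defining injury gene of the proximal tubule, was at 0.03 to 0.27 TPM in the controls and 0 to 0.04 TPM in the KspCre DKO libraries. Lcn2 stood at 11.9, 3.76 and 8.16 against 25.3 and 21.4 TPM (log2 fold change 1.55 ± 0.43 SE, limma adjusted p = 0.264). Of the 6 tested injury markers that are not keratins 0 were called, and 1 was higher and 0 lower at an unadjusted p below 0.05; the sum of the 9 matched was 939 to 1646 against 1005 to 2145 TPM. Of the mesothelial markers, Upk3b, which the urothelium also expresses and which had the smallest p of the list, is given above, Lrrn4 reached at most 0.03 TPM and Wt1, which podocytes also express, stood at 6.51 to 19.3 TPM. Gpm6a and Cldn15 were lower on the mean with overlap of the groups (log2 fold changes −0.62 and −0.43). The median log2 fold change of the 4 tested mesothelial markers that are not keratins was −0.205.

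**Figure D5:**
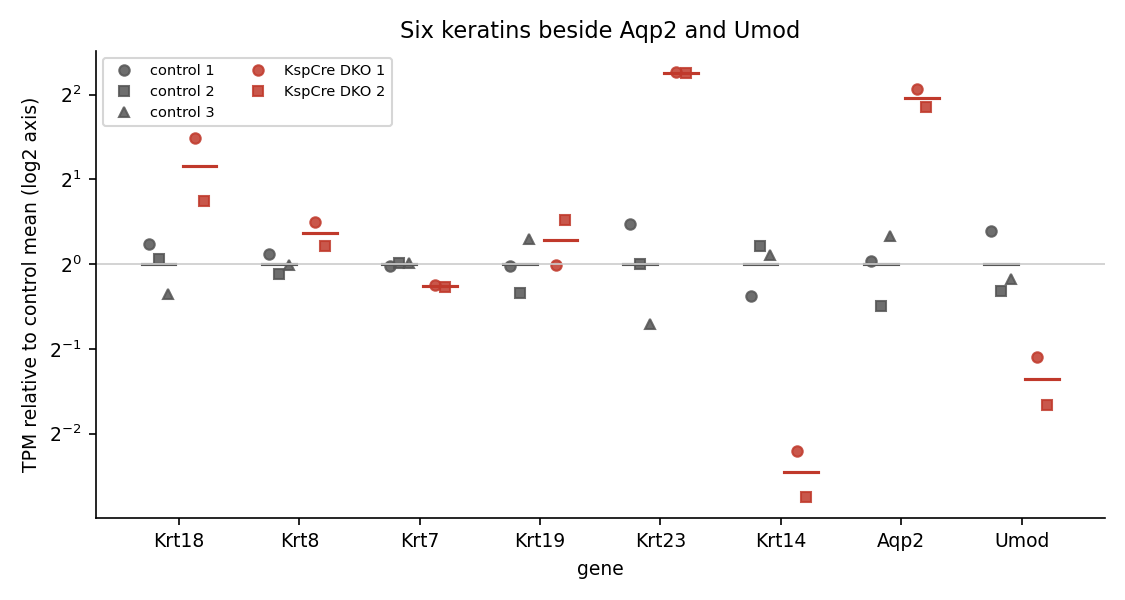
TPM relative to the control mean on a log2 axis for 6 keratins, the collecting duct gene Aqp2 and the thick ascending limb gene Umod, each point 1 library and each bar a group mean. Krt23 and Aqp2 stand highest in the KspCre DKO libraries, Krt7 is slightly below 1 and Krt14 and Umod are the lowest.

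The genes whose values over the 5 libraries lay nearest to a keratin were taken by Euclidean distance between log2(TPM + 1) values centred per gene, for the 5 members with a mean of at least 10 TPM. For Krt23 they were Wnt4, a signal of tubule formation, Fam83a and Fanca, a DNA repair gene. Wnt4 stood at 3.83, 3.11 and 1.99 TPM in control libraries, against 13.7 and 13.8 TPM in KspCre DKO libraries, and Krt80 ranked 6 of 13962 genes by nearness to Krt23. For Krt18 they were Hebp1, a heme-binding protein gene, Hps1, of lysosome-related organelles, and Gm11611. Krt80 ranked 699 and Krt8 973 by nearness to Krt18, while Krt18 ranked 7874 by nearness to Krt8. For Krt8 they were Zmym2, Syf2 and Trappc9, for Krt7 Kdm2b (a histone demethylase), Pink1 (a mitochondrial kinase) and Dusp18, and for Krt19 Smim22, Tmem159 and Phax. Krt7, Krt8 and Krt19 vary little, so many genes lie as near to them, and 5 libraries cannot order such genes firmly.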

How the data were processed

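Per the labels' protocols, total RNA of whole kidneys was selected for poly(A) and prepared with a TruSeq kit. The authors deposited TPM per gene, and the submitters' processing notes name STAR 2.2.1, RSEM 1.3.1 and build mm10, without settings or annotation release. Positions and promoter windows come from RefSeq for GRCm38.p6, matched by symbol. Read numbers cannot be had from TPM: the depth of each library is unknown and counting error has no interval. Reads of related keratin genes are divided by estimate.

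The test was limma 3.58.1 (R 4.3.3), two-sided with an intensity trend, run on log2(TPM + 1) for genes averaging 1 TPM or more, with Benjamini-Hochberg adjustment over all 13963 genes. Sums and ratios were given without a test. On data simulated for these 13963 genes, the limma test called 1.78% of genes given a log2 difference of 1, 53.5% at 2 and 93.6% at 3. Differences were given only to genes above about 5 TPM in the controls. Krt14 (control mean 3.28 TPM) and Krt23 (4.08 TPM) lie below that level, so these rates do not cover them. The members and lists were chosen with earlier results of these data known. Named genes were drawn from the members, other keratins of at least 1 TPM, the 3 of smallest p in a list, the 3 nearest genes of each abundant member and anchor markers. Itga6, Kcnj1, Scnn1b, Scnn1g, Upk1b, Aqp1, Plec, Jup, Vim, Krt1, Lor, Krt4, Krt17, Krt8-ps, Lrrn4, Wt1, Gm671 and Gm35853 were chosen after their values were seen. So were Ivl, Sbsn, Gpm6a, Cldn15, Atg101, Csad, Krt16, Fst and Gata3. Lists of cells outside the distal tubule and urothelium are described by counts. Of the symbols in the lists, 13 were not matched and are not analysed here.

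Alternatives were pseudocounts of 0.1 and 5, no filter or a minimum mean of 5 TPM, scaling by median-of-ratios or quantiles, rescaling without mitochondrially encoded genes, no trend, robust fitting, array weights, a replicate block, and leaving out every library once. The settings for the type I to type II ratio, the Krt18 to Krt8 ratio and the count of groups without overlap were chosen after seeing the data.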

Additional observations from a re-analysis of the deposited data

How the results depend on the processing

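No keratin member was called under any of the settings run, and Krt7, Krt8, Krt18, Krt19, Krt5, Krt14 and Krt23 kept their direction in each setting that could test them. Krt15 turned to −0.042 and −0.021 (log2) without control replicate 2 and KspCre DKO replicate 2, and reached 0.734 without KspCre DKO replicate 1. Krt14 was not tested at a mean of at least 5 TPM, and Krt20 was tested only with no filter (log2 fold change 0.35). Upk1a, at −0.06, turned to 0.0391 with median-of-ratios scaling, 0.00306 with quantile normalization and 0.0411 without mitochondrially encoded genes, and ranged from −0.418 to 0.263 with a library left out. With 1 library left out, Slc34a1 ranged from −0.405 to 1.061 (negative without KspCre DKO replicate 1) and Tmem159 from −0.068 to 0.527 (negative without KspCre DKO replicate 2).

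The number of genes called over the whole table moved from 23 (14 higher, 9 lower) to 14 and 39 with pseudocounts of 0.1 and 5, 4 with no filter, 42 with quantile normalization (35 and 7), 37 without mitochondrially encoded genes, 9 without a trend, 5 with array weights and 75 with the replicate block, and from 6 to 560 with a library left out. With median-of-ratios scaling it was 31 (24 and 7). Genes without overlap numbered 3650, and from 4363 to 10390 with a library left out. Removing a library can only make overlap rarer for a gene, so these counts cannot be compared with 3650. The simple keratin sum ranged from 0.19 to 0.49 (log2) and the simple to basal ratio from 0.13 to 1.16 with a library left out. The cause of the changes in the calls, the sum and the ratio was not tested. The replicate numbers share no stated animal or batch: same-numbered deviations correlated at 0.093 and 0.028, and under the replicate block, which draws on 1 residual degree of freedom, Krt23 had an adjusted p of 0.12 and no keratin was called.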

Other observations

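Intercalated cell markers, genes of the acid-base cells of the collecting duct, were mostly lower. Their 7 matched genes summed to 266 to 318 TPM in the controls and 201 to 254 TPM in the KspCre DKO libraries, with 6 lower and 1 higher, 2 lower at an unadjusted p below 0.05 and 0 called by limma. Of all tested genes 6.15% were lower and 4.16% higher at that p. Slc26a4 (pendrin) stood at 31.6, 45.7 and 32.5 TPM against 19.3 and 17.01 TPM. Thin limb markers summed to 488 to 728 TPM against 1178 to 2037 TPM. Of 7 tested, 3 were higher and 1 (Fst) lower at an unadjusted p below 0.05, and 0 were called by limma. Aqp1, which is also in the proximal tubule list, was the largest part of the sum in each control. Akr1b3, the aldose reductase gene, was the largest part in both KspCre DKO libraries. Akr1b3 stood at 179, 55.0 and 107 TPM against 1221 and 711 TPM (limma adjusted p = 0.0541).

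Lists of other kidney cells are given by counts from the limma fit, in which 0 genes of each list were called. At an unadjusted p below 0.05, which 4.16% of all tested genes met on the higher and 6.15% on the lower side, 0 of 9 proximal tubule and 0 of 7 podocyte markers passed in either direction. Of 9 tested fibroblast markers 4 were lower, with a median log2 fold change of −0.79, and of 7 macrophage markers 3 were lower, with a median of −0.74, against −0.14 for all tested genes. Of 9 endothelium markers 1 was lower. Of 5 parietal epithelium markers other than keratins 1 was lower, of 4 tested mesothelium markers 1 was higher, and of 3 tested epidermis markers 1 was lower. The epidermal genes Flg and Dsg1a were listed at 0 in all 5 libraries.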
